A study of Mus musculus with 3 samples.

Results

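The Hox gene code of melan-a cells was read from RNA-seq of a cultured mouse melanocyte line. Members were chosen by name alone, as every gene whose mm9 Ensembl symbol is Hoxa, Hoxb, Hoxc or Hoxd followed by a number, which gave 39 genes (40 Ensembl identifiers) of 22698 in the files. Of these, 11 lie in the HoxA, 10 in the HoxB, 9 in the HoxC and 9 in the HoxD cluster. The data hold 1 condition, untreated melan-a cells, in 3 replicates that the labels number 1, 3 and 4. Melan-a is an immortalized line, labelled as melanocytes derived from Ink4a-ARF-/- mice on the C57BL/6J background, so that by its label every library shares the loss of this tumor suppressor locus. All cells were grown in RPMI medium with 10% fetal bovine serum, 200 nM of the phorbol ester 12-O-tetradecanoylphorbol 13-acetate and 200 pM cholera toxin. The replicates are samples of 1 line, the body site of the skin it came from is not given in the sources used here, and no second cell type or treatment is at hand, so levels are described and no difference between conditions is tested.

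Hox genes encode transcription factors with a homeodomain that binds DNA, and they assign positional identity along the head to tail axis of the embryo. They lie in 4 clusters that arose by duplication, and genes at matching places in the clusters form paralog groups. Within a cluster, genes at the 3′ end are used toward the head and early, and genes at the 5′ end toward the tail and late. Cells of adult skin, fibroblasts best known among them, keep parts of this pattern in culture. Melanocytes descend from the neural crest, whose cells take up positional identity from the level of the neural tube they leave.

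Levels are FPKM (fragments per kilobase of transcript per 1000000 reads), a unit that is per length, so levels of different genes can be set side by side. The library sizes that the low values imply were 53900000, 47000000 and 66200000 reads in replicates 1, 3 and 4. A gene was counted as detected when its value was worth at least 3 reads, to the nearest read, in every replicate, which for a transcript of 1 kb means 0.0557, 0.0638 and 0.0453 FPKM. The melanocyte label was checked against markers, and 8 of 9 matched melanocyte genes reached a mean of 1 FPKM, against 45.1% of all genes. The highest was *Tyrp1*, a melanin enzyme, at 3140 ± 430 (SD, n = 3). The exception was *Kit*, the receptor that melanocyte precursors depend on, at 0.67, 0.59 and 0.78 FPKM.

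Paralog group 9 carried most of the Hox signal, and through 1 of its 4 genes. The homeoboxes of *Hoxb9* and *Hoxc9* are shown to make clear how far reads of 1 could be taken for reads of the other. The 180 bases that encode the homeodomain were taken from the annotated transcripts and located in mm9, at chr11:96135973-96136152 (plus strand) for *Hoxb9* and chr15:102814361-102814540 (plus strand) for *Hoxc9*, both in coding exons. They are written 5′ to 3′ in lower case, and capitals mark bases that differ from *Hoxb9*.
Hoxb9: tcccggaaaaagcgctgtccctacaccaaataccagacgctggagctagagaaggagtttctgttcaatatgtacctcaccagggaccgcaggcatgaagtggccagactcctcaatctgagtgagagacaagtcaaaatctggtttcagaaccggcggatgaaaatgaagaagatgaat
Hoxc9: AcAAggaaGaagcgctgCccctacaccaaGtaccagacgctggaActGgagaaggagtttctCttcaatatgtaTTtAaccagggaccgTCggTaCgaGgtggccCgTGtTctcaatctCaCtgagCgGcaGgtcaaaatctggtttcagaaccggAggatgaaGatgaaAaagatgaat
The *Hoxc9* homeobox had 29 differences from *Hoxb9* (83.9% identity). That of *Hoxd9* was the closest, with 28 differences (84.4%), while the most distant of the 39 genes was *Hoxa13* at 53.3%. Over the whole transcripts, 0.16% of the 40-base words of *Hoxb9* occurred in another Hox gene. Stretches of this length that *Hoxb9* shares with another member were thus rare.

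*Hoxb9* (ENSMUSG00000020875, mm9 chr11:96132771-96137909, plus strand), a posterior group gene active in the thoracic trunk of the embryo, stood far above every other member. It measured 88.84, 100.23 and 81.98 FPKM in replicates 1, 3 and 4, a mean of 90.4 ± 9.2 (SD, n = 3). By mean level it ranked 660 of the 22698 genes. It supplied 71.5%, 74.3% and 68.6% of the summed FPKM of all Hox genes, or 71.5 ± 2.9%. The other 38 genes together came to 35.9 ± 1.5 FPKM. Its lowest replicate lay well above the highest value of any other Hox gene, 8.42 FPKM for *Hoxb7*, and its level was 10.9 ± 1.3 times that of *Hoxb7*.

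The other members of group 9 were at or near 0. *Hoxa9*, whose protein is known for its part in leukemia and in trunk patterning, was listed at 0.01, 0 and 0.02 FPKM, about 2, 0 and 5 reads. *Hoxc9* and *Hoxd9* were listed at 0 in every replicate. Against the floor of 3 reads per library, *Hoxb9* was at least 3815-fold higher than *Hoxc9* and at least 3427-fold higher than *Hoxd9* in the replicate that gives the lowest bound. *Hoxb9* and *Hoxc9* thus had homeoboxes that are close and levels that did not overlap.

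**Figure D1:**
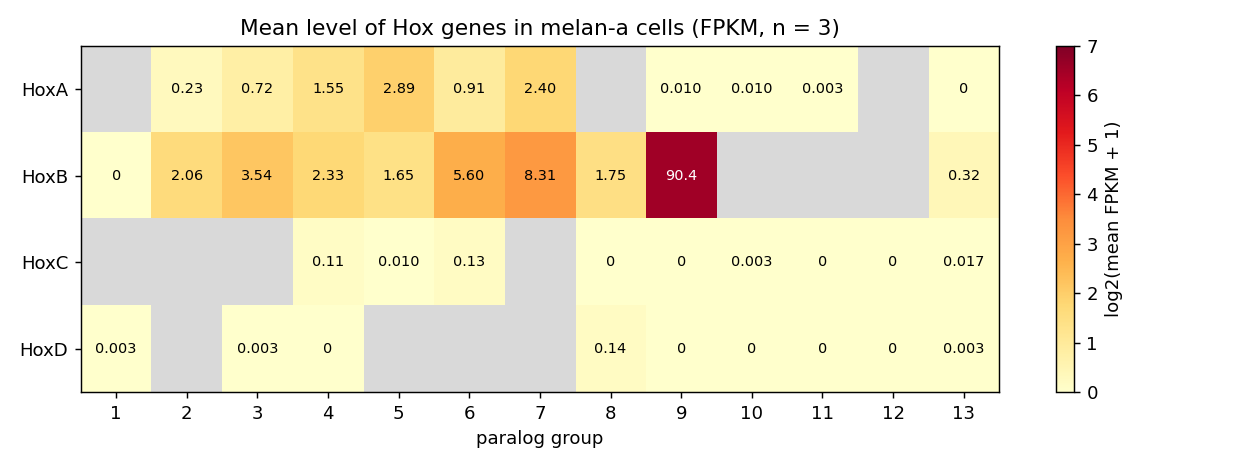
Mean level of Hox genes by cluster (rows) and paralog group (columns), with the mean FPKM of 3 replicates in each cell, color on the log2(mean FPKM + 1) scale, and grey where there is no gene or none is plotted. The darkest cell is *Hoxb9* at 90.4 FPKM, and the rows of HoxC and HoxD stay near 0.

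In all, 19 of the 39 Hox genes were detected, against 58.2% of all genes with an annotated length. A mean of at least 1 FPKM was reached by 12 Hox genes, against 45.1% of all genes, and only *Hoxb9* reached 10 FPKM, against 23.6%. A further 11 Hox genes were listed at 0 in every replicate, as were 31.4% of all genes. The median level on the log2(FPKM + 1) scale was 0.02 over the Hox genes and 0.35 over all genes. The family was thus mostly low, with 1 gene among the abundant ones.

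The HoxB cluster (mm9 chr11:96055630-96229570) was the most used, with 9 of 10 genes detected and 8 of them at 1 FPKM or more. Of all genes with an annotated length 58.2% were detected, and 45.1% of all genes reached a mean of 1 FPKM. The summed level of HoxB was 114.12, 124.77 and 108.82 FPKM, a mean of 116.0 ± 8.1 and 91.8 ± 0.74% of the Hox total. Without *Hoxb9* the cluster still held 71.3%, 70.9% and 71.5% of what remained. HoxA, on chromosome 6, followed with 7 of 11 genes detected, near the share over all genes, and 4 of them at 1 FPKM or more. Its sum was 9.91 ± 0.31 FPKM, or 7.88 ± 0.71%. HoxC (chr15:102751534-102867274) had 2 of 9 detected and a sum of 0.273 ± 0.04 FPKM. HoxD (chr2:74506367-74603200) had 1 of 9 detected and a sum of 0.147 ± 0.029 FPKM. The sums of the 4 clusters kept this order in mean, and those of HoxC and HoxD did not overlap each other or the other clusters in any replicate.

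**Figure D2:**
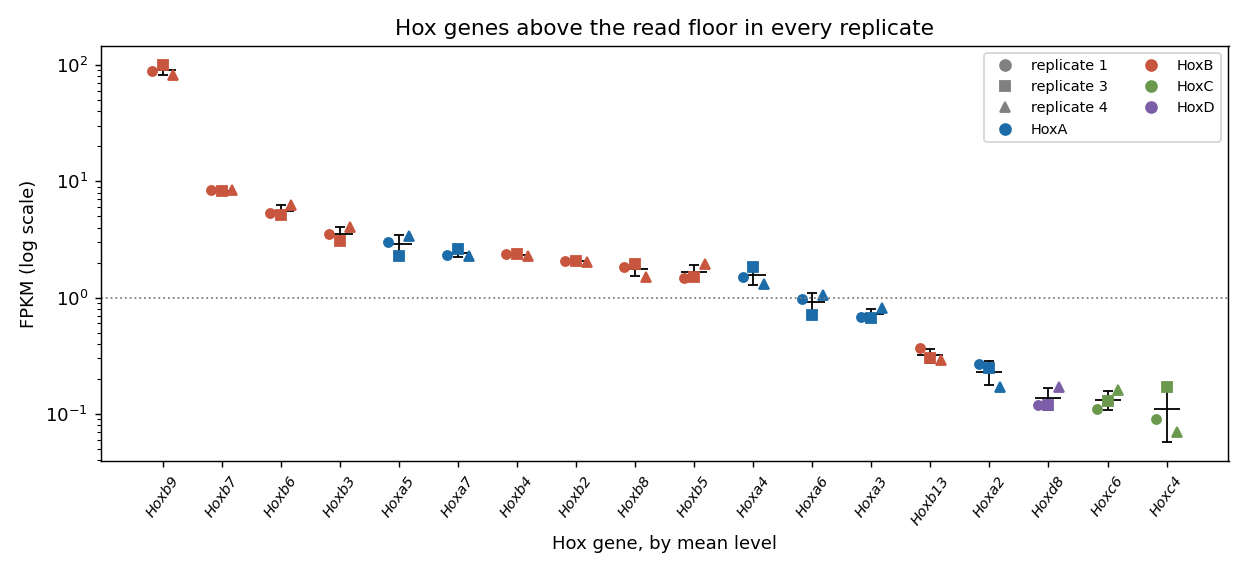
Level of 18 of the 19 detected Hox genes in each replicate (FPKM, log axis), with the black bar at the mean, whiskers of 1 SD and a dotted line at 1 FPKM. *Hoxb9* stands apart at 81.98 to 100.23 FPKM, while the genes from *Hoxb3* down form a graded series in which many neighbors overlap.

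Along HoxB, levels were uneven and did not climb steadily toward *Hoxb9*. At the 3′ end *Hoxb1*, a gene of the hindbrain, was listed at 0 in all replicates, and its neighbor *Hoxb2*, also used in the hindbrain, measured 2.08, 2.06 and 2.03 FPKM. *Hoxb3* measured 3.50, 3.04 and 4.08 FPKM. *Hoxb4*, known for its effect on blood stem cells, measured 2.35, 2.37 and 2.27 FPKM. The silent end of the cluster was thus a single gene, 10062 bases from the closest detected one.

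The central HoxB genes, which pattern the neck and upper trunk, included the next highest levels. *Hoxb5* measured 1.47, 1.51 and 1.96 FPKM. *Hoxb6* measured 5.36, 5.15 and 6.29 FPKM. *Hoxb7* (chr11:96145571-96151650) measured 8.33, 8.17 and 8.42 FPKM, and its replicates lay above all those of *Hoxb6*. *Hoxb8* (chr11:96143219-96146639), which sits between *Hoxb7* and *Hoxb9*, measured only 1.82, 1.94 and 1.5 FPKM. Of its exon bases 40.4% are shared with other annotated genes on the same strand, as are 26.2% of those of *Hoxb7*. How reads on shared bases were counted is not given in the sources used here, so the levels of both genes are uncertain. *Hoxb9* shares none, and lies 5309 bases from *Hoxb8*.

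*Hoxb13*, the most 5′ gene of the cluster and otherwise known from the tail bud and the prostate, lies 74009 bases beyond *Hoxb9*. It was low but detected at 0.37, 0.30 and 0.29 FPKM, about 44, 31 and 42 reads. *Hoxb9* was 240 to 334 times as high in the same libraries.

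Along HoxA, the genes up to *Hoxa7* were detected and the 4 genes beyond were not. *Hoxa2*, which sets the identity of the second pharyngeal arch, was the lowest of the detected HoxA genes at 0.27, 0.25 and 0.17 FPKM. *Hoxa3*, needed for the thymus and parathyroid, measured 0.68, 0.67 and 0.81 FPKM under 1 identifier (ENSMUSG00000079560). A second identifier with the same symbol (ENSMUSG00000059723) was listed at 0, and 99.9% of its exon bases overlap another gene on the same strand, so the 2 rows were not separable and the first was used.

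*Hoxa4* measured 1.51, 1.82 and 1.31 FPKM. *Hoxa5*, which acts in the lung and the neck vertebrae, was the highest HoxA gene by mean at 3.0, 2.3 and 3.36 FPKM, although its range overlapped that of *Hoxa7*. *Hoxa6* measured 0.98, 0.71 and 1.05 FPKM. *Hoxa7* (chr6:52164490-52171853, minus strand), a trunk gene, measured 2.32, 2.60 and 2.28 FPKM. The next gene, *Hoxa9* (chr6:52173099-52181088), lies 1245 bases away in the annotation and was worth 5 reads at most. *Hoxa10* was listed at 0.01, 0.02 and 0 FPKM, *Hoxa11* at 0.01, 0 and 0, and *Hoxa13* at 0 throughout. These 3 genes pattern the limbs, the reproductive tract and the tail.

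**Figure D3:**
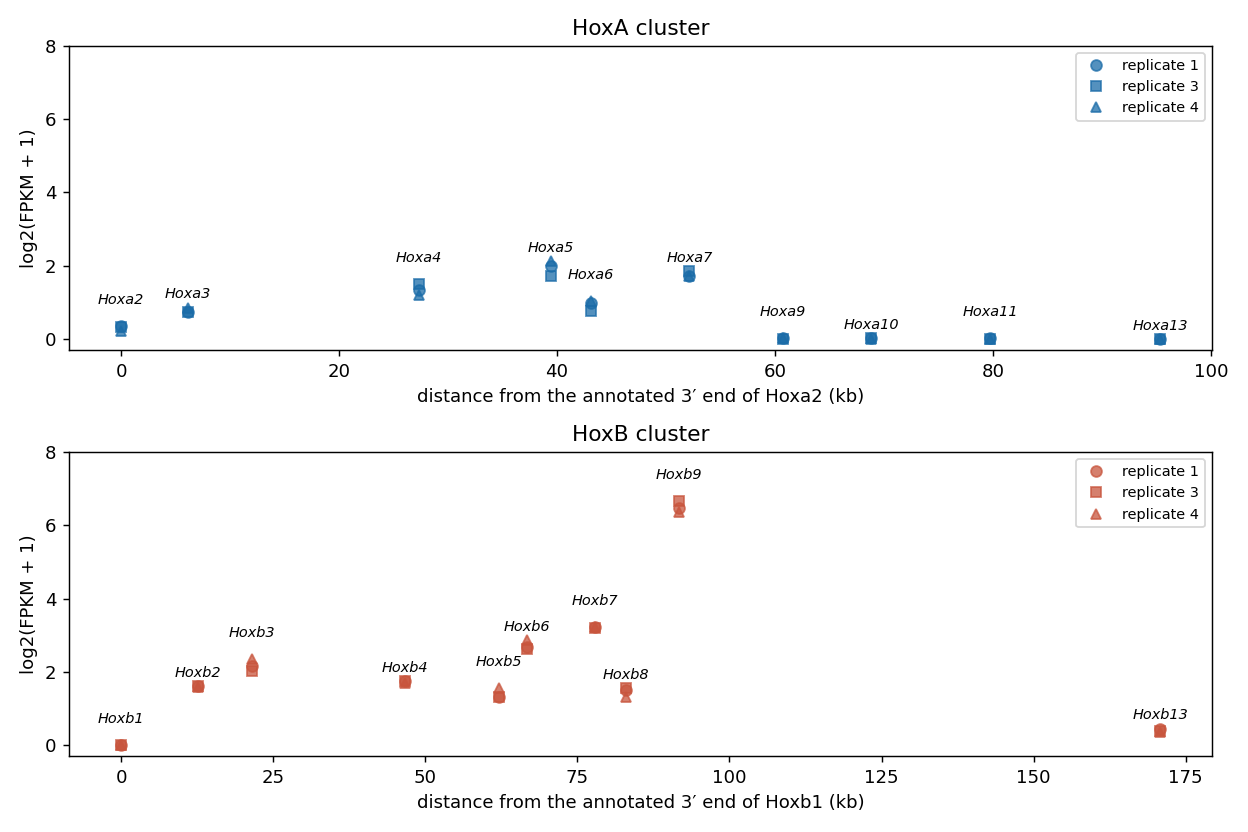
Level of HoxA genes (top) and HoxB genes (bottom) in each replicate on the log2(FPKM + 1) scale against the distance of their annotated 3′ ends from that of *Hoxa2* or *Hoxb1* in kb. HoxA falls to about 0 from *Hoxa9* on, and HoxB has its highest point at *Hoxb9* and a low one at *Hoxb13*.

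The promoters on both sides of the HoxA step are shown because they belong to the last detected and the first undetected gene. They were taken from RefSeq on GRCm38.p6, in windows that run from before the start to just past it, at chr6:52218524-52218823 for *Hoxa7* and chr6:52227321-52227620 for *Hoxa9*, both on the minus strand. Capitals mark each CG.
Hoxa7: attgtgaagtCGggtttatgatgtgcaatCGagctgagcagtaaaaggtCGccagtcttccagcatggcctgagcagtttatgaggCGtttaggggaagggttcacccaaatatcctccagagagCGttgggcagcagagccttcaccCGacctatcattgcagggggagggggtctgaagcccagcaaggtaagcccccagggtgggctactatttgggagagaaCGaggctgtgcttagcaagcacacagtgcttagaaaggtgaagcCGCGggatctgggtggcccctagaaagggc
Hoxa9: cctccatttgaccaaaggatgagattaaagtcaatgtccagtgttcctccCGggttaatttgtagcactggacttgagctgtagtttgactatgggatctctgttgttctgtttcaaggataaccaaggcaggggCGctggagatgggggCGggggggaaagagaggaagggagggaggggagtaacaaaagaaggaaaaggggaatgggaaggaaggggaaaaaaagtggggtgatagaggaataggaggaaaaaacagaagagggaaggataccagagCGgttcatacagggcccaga
The *Hoxa7* window held 9 CG and the *Hoxa9* window 4, and neither held the letters CCAAT or TATAAA on either strand. Of the 39 Hox genes, 22 had a promoter in the RefSeq table, with 24 windows. The 9 windows of detected genes had a median of 13 CG (6 to 29), the 15 windows of undetected genes a median of 20 (4 to 45), and all 32851 promoters a median of 7. The ranges of detected and undetected Hox genes overlapped widely. CCAAT was found in 66.7% of the windows of detected genes, 60% of those of undetected genes and 37.4% of all promoters.

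Where HoxA and HoxB hold a gene of the same paralog group, the HoxB copy was usually the higher. In group 2 *Hoxb2* was 9.29 ± 2.3 times as high as *Hoxa2*, and in group 3 *Hoxb3* was 4.91 ± 0.32 times as high as *Hoxa3* (mean of the within-replicate ratios, SD, n = 3). The ratio of HoxB to HoxA was 1.53 ± 0.22 in group 4, 6.24 ± 0.92 in group 6 and 3.48 ± 0.29 in group 7. Group 5 went the other way, *Hoxb5* having 0.577 ± 0.083 times the level of *Hoxa5*. In each of these groups the replicates of 1 gene lay entirely above those of the other. With 3 replicates an exact paired permutation test cannot go below a two-sided p of 0.25. Of the exon bases of *Hoxa3* 33.0% are shared with other annotated genes on the same strand, as are 26.2% of those of *Hoxb7*. Genes on the opposite strand cover 49.4% of those of *Hoxb2* and 37.9% of those of *Hoxb3*. How such bases were counted is not given in the sources used here, so the ratios in groups 2, 3 and 7 are uncertain.

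In HoxC and HoxD, 3 of 18 genes were detected, against 58.2% of all genes with an annotated length, and none reached 1 FPKM. *Hoxc4* measured 0.09, 0.17 and 0.07 FPKM, *Hoxc6* measured 0.11, 0.13 and 0.16, and *Hoxd8* measured 0.12, 0.12 and 0.17. These 3 are central genes, and their values were worth between 12 and 31 reads per library. In bulk RNA, few cells with a transcript cannot be told apart from little of it in each cell. *Hoxc5* was listed at 0.01 FPKM in each replicate, about 1 or 2 reads, and *Hoxc13*, a gene of hair and nails, at 0.01, 0 and 0.04. *Hoxc10*, *Hoxd1*, *Hoxd3* and *Hoxd13* each had a single nonzero replicate at 0.01. *Hoxc8*, *Hoxc9*, *Hoxc11*, *Hoxc12*, *Hoxd4*, *Hoxd9*, *Hoxd10*, *Hoxd11* and *Hoxd12* were listed at 0 throughout. Of the exon bases of *Hoxd4*, 67.4% are shared with another gene on the same strand, which leaves its 0 uncertain.

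By body region, the central groups 4 to 8 had the largest share of genes detected, 12 of 15, and a sum of 27.8 ± 0.96 FPKM. Over all genes with an annotated length the share detected was 58.2%. The anterior groups 1 to 3 had 5 of 8 detected, near the share over all genes, and a sum of 7.74 ± 0.54 FPKM. The posterior groups 9 to 13 had 2 of 16 detected, *Hoxb9* and *Hoxb13*, yet the largest sum at 90.7 ± 9.2 FPKM. Groups 10, 11 and 12, which mark the lumbar and sacral levels and the limbs, held no detected gene. When group 9 was counted as central, the posterior sum dropped to 0.357 FPKM, so the region with the highest sum is set by the place given to *Hoxb9*.

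In the order of the 19 detected genes, 8 of the 18 neighbor pairs were separate in all replicates and 10 overlapped. The first 3 steps, from *Hoxb9* through *Hoxb7* and *Hoxb6* to *Hoxb3*, were all separate. In the run of *Hoxb3*, *Hoxa5*, *Hoxa7* and *Hoxb4* each gene overlapped its neighbor, as it did in the run of *Hoxb8*, *Hoxb5* and *Hoxa4*. Of the 12 genes at 1 FPKM or more in every replicate, the coefficient of variation ran from 1.2% for *Hoxb2* to 18.7% for *Hoxa5*, with a median of 10.9%, and its median over 10007 genes of like level was 11.4%.

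The genes around the clusters did not share the Hox levels in a uniform way. Beside HoxB, *Ttll6* and *Skap1* had means of 0.00667 and 0.0133 FPKM, although *Hoxb9* was at 90.4. Beside HoxA, *Evx1*, a homeobox gene at the silent 5′ end, was listed at 0, while *Skap2*, an adaptor protein gene 142818 bases from the 3′ end, measured 66.08, 58.48 and 78.18 FPKM. Beside HoxD, *Evx2* was listed at 0 and *Mtx2*, a mitochondrial import gene, measured 7.61, 7.51 and 8.54 FPKM. Beside HoxC, *Gm17649* was listed at 0 and *Smug1*, a DNA repair gene, measured 3.44, 3.42 and 3.26 FPKM. Inside the clusters the annotation holds 32 other genes, of which 3 had a row in the files, each at 0.02 FPKM or less. The other 29 were not analysed here, antisense RNAs among them, and the strand setting of the counting is not given in the sources used here.

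Hox proteins bind DNA together with TALE homeodomain proteins. All 9 genes of this list were detected, against 58.2% of all genes with an annotated length. A mean of 1 FPKM or more was reached by 6 of them, against 45.1% of all genes. *Pbx2*, a direct partner, was the highest at 15.20, 16.22 and 12.51 FPKM. *Meis3* measured 12.94, 15.53 and 12.42 FPKM, *Pknox1* had a mean of 7.95 ± 0.51 and *Meis2* of 6.42 ± 0.67. *Pbx3* had a mean of 3.34 ± 0.25 FPKM. *Pknox2*, *Meis1* and *Pbx4* stayed below 1 FPKM in every replicate. Cofactor genes of all 3 families (Pbx, Meis and Pknox) were thus measured, and every one of them was below *Hoxb9*.

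**Figure D4:**
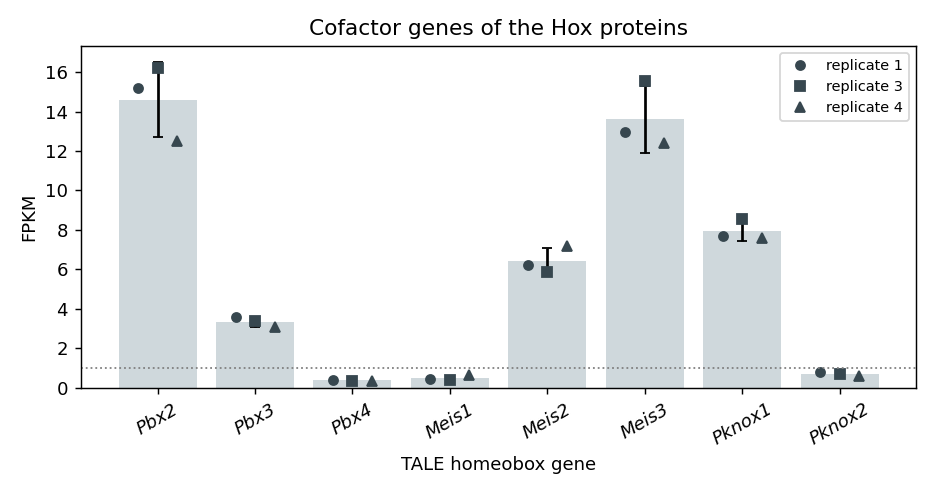
Level of 8 of the 9 TALE cofactor genes in melan-a cells (FPKM), with bars at the mean, whiskers of 1 SD, a point for each of the 3 replicates and a dotted line at 1 FPKM. *Pbx2* and *Meis3* are the highest, at 14.6 and 13.6 FPKM.

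Of 10 genes that act upstream of Hox genes in the embryo, 5 reached a mean of 1 FPKM, against 45.1% of all genes. The retinoic acid receptors, which drive 3′ Hox genes, were among them, with *Rarg* at 90.49, 103.79 and 72.66 FPKM, *Rarb* at 14.5 ± 1.7 and *Rara* at 13.8 ± 2.4. *Gdf11*, a secreted signal of the trunk to tail transition, had 4.72 ± 0.4 FPKM, and *Cyp26b1*, which degrades retinoic acid, 1.02 ± 0.2. The caudal genes *Cdx1*, *Cdx2* and *Cdx4*, which activate central Hox genes in the embryo, and *Cyp26a1* were listed at 0. All 18 Polycomb and trithorax genes that matched, whose proteins keep Hox genes silent or active, reached 1 FPKM, from *Jarid2* at 2.83 ± 0.66 to *Men1* at 25.2 ± 4.2. These cells thus held transcripts of both systems, and a link to the silent or the active Hox genes was not tested.

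Homeobox and T-box genes that mark the head or the limbs were mostly low. None of 29 reached a mean of 1 FPKM, against 45.1% of all genes, and 10 were detected, against 58.2%. The highest were *Dlx1*, a gene of the forebrain and the jaw, at 0.87, 0.93 and 0.94 FPKM, and *Lmx1b*, which sets the dorsal side of the limb, at 0.88, 1.08 and 0.67. The forebrain genes *Otx2* and *Emx1* were listed at 0, while *Otx1* was detected at 0.47, 0.47 and 0.54 FPKM.

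Markers of other skin cells, apart from those of Schwann cells, were mostly low. Over all genes 45.1% reached a mean of 1 FPKM, and 58.2% of those with an annotated length were detected. Of 10 fibroblast genes 1 reached 1 FPKM, *Col1a1* at 1.54 ± 0.22, the summed list came to 1.81 to 2.16 FPKM, and *Lum* and *Dpt* were listed at 0. Of 8 keratinocyte genes 1 did, *Sfn* at 2.03 ± 0.54, with *Krt1*, *Trp63* and *Dsg3* at 0. Of 3 immune genes 1 did, *Cd68* at 1.19 ± 0.42, with *Ptprc* and *Itgam* at 0, and none of 3 endothelial genes was detected. Of 6 Schwann cell genes 5 reached 1 FPKM, led by *Pmp22* at 296.0 ± 19.0, although the myelin gene *Mbp* had only 1.76 ± 0.17. Whether another cell type contributed to the low Hox values was not tested.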

How the data were processed

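RNA-seq of untreated melan-a cells (3 replicates) was analysed from 1 table per replicate. The authors deposited FPKM values that carry 2 decimals and a TMM scaling (trimmed mean of M values), for 22698 Ensembl genes. By the study's methods, stranded libraries were trimmed by 10 bases, aligned to mm9 with STAR, freed of rRNA reads and counted with htseq-count on Ensembl release 67. The submitters' processing notes name CASAVA 1.8.2, STAR 2.3.0e, SAMtools, HTSeq 0.5.3p3 and edgeR. How FPKM was made from counts, with which gene length, is not given in the sources used here.

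Positions and exon lengths were read from the GENCODE annotation built on Ensembl release 65 (mm9), in which 22324 genes were found. Library sizes were recovered from genes with 1 transcript of at most 500 bases, for which a correct size turns each low FPKM value into a whole number of reads. They rested on 106, 105 and 116 genes, with 100%, 99.0% and 98.3% of their values within rounding. The search chose the size with the highest such share. This step was tested on counts simulated with the same exon lengths, so an error in those lengths was not tested. Read numbers use the joined exon length. At 2 decimals, 1 read rounds to 0 for genes longer than 3.71, 4.26 and 3.02 kb in replicates 1, 3 and 4. Means, SDs and counts over replicates were computed with numpy 2.4.6 and pandas 2.3.3 under Python 3.11.15, and plotted with matplotlib 3.10.9. With 1 condition no test was run. Nothing says that the replicates came from separate thaws of the line, so the SDs may be technical. Floors cover counting error only.

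The named genes were all Hox genes, the genes inside and nearest the clusters, and lists of cofactors, regulators and cell type markers, of which members at 1 FPKM or more or above all others were named. Some genes and sequences are not reported here. Genes listed at 0 or low were added after their values were seen. The members and the lists were chosen with earlier results of these data known. Of the lists, 4 of 22 Polycomb and trithorax symbols and 1 of 10 melanocyte symbols had no match. Alternatives were other cutoffs and floors, each replicate left out, the median over replicates, rescaled values, a correction for GC content, another pseudocount and other group bounds.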

Additional observations from a re-analysis of the deposited data

How the results depend on the processing

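Values rescaled to a sum of 1000000 in each replicate changed the unit and raised every sum, to 26.3 for HoxA, 307.0 for HoxB, 0.724 for HoxC and 0.391 for HoxD, and to 20.6, 73.8 and 240.0 for the anterior, central and posterior groups, in the same order. Group 9 counted as central gave sums of 118.0 for the central and 0.357 for the posterior groups. The median of the Hox genes on the log2 scale became -3.11 with a pseudocount of 0.1, and 1.40 over only the genes above the read floor. The count of detected genes was 19 or 20 under every floor tried, and that of genes at 1 FPKM was 8 to 14 over the cutoffs of 2 and 0.5 FPKM. *Hoxb9* was the highest Hox gene with any replicate left out, and leaving one out moved the 12 genes at 1 FPKM or more by -9.7% to 10.0%. Correcting for GC content moved them by -1.3% to 2.3%. No paired analysis was possible because there is a single group. Depth limits the statements on genes at 0, which mean fewer than 3 reads per library.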
